A study of Mus musculus with 4 samples.

Results

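The aminoacyl-tRNA synthetase genes are 37 of the 20807 protein-coding genes of the mouse autosomes, chosen by symbol alone: a letter for the amino acid followed by ars, with or without a final digit, plus Eprs, Farsa and Farsb. By the compartment their products serve, 18 are cytosolic, 17 are mitochondrial, and Gars and Kars make both forms from 1 gene. H3K27ac, a histone acetylation found at active promoters and enhancers, had been mapped by ChIP-seq (immunoprecipitation of chromatin, then sequencing of its DNA) in gastrocnemius, a muscle of the calf, taken from B6CASTF1/J female adult mice aged 2 months. This strain is a first-generation hybrid, and allele-specific signal was not analysed here. All 4 libraries belong to 1 group, 2 biological replicates with 2 technical replicates each, and tissue from 2 samples was pooled for each biological replicate. No other tissue, genotype or treatment is in the series, so every value below describes this muscle and no groups of samples could be compared.

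Aminoacyl-tRNA synthetases join each amino acid to its tRNA, the step that fixes the reading of the genetic code. Cytosol and mitochondria each need a set, and nearly all the mitochondrial enzymes are nuclear genes of their own. Several cytosolic enzymes sit together on scaffold proteins in the multisynthetase complex. When amino acids run short, the kinase GCN2 (gene Eif2ak4) raises translation of the factor ATF4, which binds C/EBP-ATF response elements (CARE) in genes of amino acid supply, cytosolic synthetase genes among them.

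The deposited lists carried the muscle's marks. All 6 skeletal muscle markers (Acta1, Ckm, Myh4, Tnnt3, Mylpf, Pvalb) were acetylated over 8610 to 10000 bp of the 10 kb around a start, and the 3 heart, 2 liver and 2 neuron markers had 0 bp. Endothelial (Pecam1, Cdh5, Tek) and fibroblast markers (Pdgfra, Col1a1, Dcn) were acetylated in 3 of 3 cases each, over 5785 to 8565 bp and 8274 to 9645 bp. Of the 3 macrophage markers, Csf1r had 2300 bp and Adgre1 and Ptprc had 0. Markers of other cell types were thus acetylated beside those of muscle fibres, the part of such cells in the values below was not tested, and fewer acetylated cells cannot be told apart from less acetylation per cell. The list from replicate 2 (86937 regions, 117.8 Mb) was longer than that from replicate 1 (70953 regions, 85.1 Mb), and the replicated list held 84452 regions over 118.0 Mb.

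Every synthetase gene had an acetylated promoter, in each of the 4 lists. A promoter region here is a region within 1 kb of any annotated start, and 37 of 37 genes had one, whether the regions came from the replicated list, the pooled list or either biological replicate alone. Of all protein-coding genes, 62.1% had one in the replicated list and 59.5% had one in both single-replicate lists. Within 5 kb of a start the background was 65.8%. The region also covered a start itself in 37 of 37 synthetase genes, against 92.1% of all genes with a promoter region. Many genes of general cell function share this state: 77 of 79 cytosolic and 78 of 78 mitochondrial ribosomal protein genes had a promoter region too. The count rests on the annotated starts for 1 gene, Tars2, whose region lay at an internal start 5323 bp from the 5′ end of its gene model, so that 36 of 37 were found from the 5′ ends alone.

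To show the DNA under these regions, the 250 bases before the start are printed for 6 genes, from RefSeq on GRCm38.p6 (mm10), 5′ to 3′ on the strand of the gene. Gars and Tars hold a CARE, Eprs and Farsa have the longest and shortest acetylated length of the cytosolic genes, and Iars2 and Lars2 those of the mitochondrial genes. They lie at chr6:55037751-55038000 (plus strand, Gars), chr15:11399659-11399908 (minus, Tars), chr1:185362794-185363043 (plus, Eprs), chr8:84856736-84856985 (plus, Farsa), chr1:185329402-185329651 (minus, Iars2) and chr9:123366677-123366926 (plus, Lars2). Capitals mark the string of a CARE (TGATGNAA), an ETS factor (CCGGAAG), NRF1 (GCATGCGC) or YY1 (AAGATGGC), on either strand.
Gars: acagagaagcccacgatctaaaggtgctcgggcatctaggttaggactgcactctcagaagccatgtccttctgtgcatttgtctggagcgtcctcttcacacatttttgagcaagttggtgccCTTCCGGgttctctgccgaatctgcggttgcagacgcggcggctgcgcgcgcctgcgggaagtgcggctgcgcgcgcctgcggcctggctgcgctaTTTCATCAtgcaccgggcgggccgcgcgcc
Tars: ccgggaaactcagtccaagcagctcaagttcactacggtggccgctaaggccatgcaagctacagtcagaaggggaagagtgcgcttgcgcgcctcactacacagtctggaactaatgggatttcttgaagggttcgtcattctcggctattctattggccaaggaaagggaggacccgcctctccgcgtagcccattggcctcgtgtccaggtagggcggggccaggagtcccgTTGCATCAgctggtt
Eprs: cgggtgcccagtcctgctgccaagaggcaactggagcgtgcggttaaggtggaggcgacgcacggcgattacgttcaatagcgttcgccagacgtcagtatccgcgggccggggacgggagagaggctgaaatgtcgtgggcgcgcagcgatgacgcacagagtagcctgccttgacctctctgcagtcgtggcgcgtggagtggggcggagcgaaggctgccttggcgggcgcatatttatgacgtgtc
Farsa: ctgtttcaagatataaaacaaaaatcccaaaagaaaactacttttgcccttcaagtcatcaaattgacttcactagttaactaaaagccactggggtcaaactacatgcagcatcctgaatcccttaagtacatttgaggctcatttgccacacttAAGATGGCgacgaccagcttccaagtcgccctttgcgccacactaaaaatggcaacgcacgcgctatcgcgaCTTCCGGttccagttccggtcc
Iars2: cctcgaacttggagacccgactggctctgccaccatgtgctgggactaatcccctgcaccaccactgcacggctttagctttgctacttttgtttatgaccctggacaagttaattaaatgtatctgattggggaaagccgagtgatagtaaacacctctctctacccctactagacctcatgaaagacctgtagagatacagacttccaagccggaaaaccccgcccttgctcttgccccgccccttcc
Lars2: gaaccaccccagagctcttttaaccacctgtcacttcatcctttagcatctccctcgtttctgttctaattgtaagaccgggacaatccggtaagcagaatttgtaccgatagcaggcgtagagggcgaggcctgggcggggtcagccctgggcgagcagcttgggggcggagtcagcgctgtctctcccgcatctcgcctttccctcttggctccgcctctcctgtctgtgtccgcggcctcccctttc
All 250 printed bases were acetylated in the replicated list at Gars, Eprs, Iars2 and Lars2. At Tars 153 were, because a gap split the region there, and at Farsa 49 were, because its region began only 52 bp before the start. The printed bases of Farsa also contain an ETS string 22 bases and a YY1 string 94 bases before the start, and those of Eprs, Iars2 and Lars2 hold no string that is capitalised here.

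The CARE string, the site bound by ATF4 with C/EBP partners, was found in cytosolic and dual-compartment genes. Promoter windows of 300 bases (250 before the start to 50 after it) were matched for 27 of the 37 genes; Cars, Hars, Hars2, Lars, Nars, Pars2, Rars, Vars and Wars were among those with none. TGATGNAA was present on either strand in 5 of the 27: Aars, Iars, Tars and Yars, 4 of 11 cytosolic genes, and Gars, 1 of 2 dual genes. It was in 0 of 14 mitochondrial genes, in 3.79% of all 15872 genes with a window and in 2.76% of those with a promoter region. For each of the 5 genes 1 match is shown with 11 bases on each side, since this string had the widest gap in its share of genes between the compartments. They lie at chr8:111033840-111033869 (Aars, plus strand), chr6:55037960-55037989 (Gars, plus), chr13:49682126-49682155 (Iars, plus), chr15:11399655-11399684 (Tars, minus) and chr4:129189895-129189924 (Yars, plus), with the match in capitals.
Aars: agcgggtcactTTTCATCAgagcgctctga
Gars: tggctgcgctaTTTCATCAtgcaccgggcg
Iars: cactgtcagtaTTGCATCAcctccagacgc
Tars: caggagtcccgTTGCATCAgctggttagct
Yars: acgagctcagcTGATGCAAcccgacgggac
The matches of Gars and Tars began 30 and 15 bases before the RefSeq start. Those shown for Yars, Iars and Aars began 3, 7 and 9 bases after it. All 30 bases of each stretch lay in an acetylated region of the replicated list, and the matches of Tars and Yars share 2 bases with a CAGCTG string.

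The NRF1 and YY1 strings ran the other way, with few matches in all. NRF1, a factor of nuclear genes for mitochondrial proteins, had its string GCATGCGC in 3 of 14 mitochondrial genes (Rars2, Vars2, Wars2). It was in 0 of 11 cytosolic and 0 of 2 dual genes, in 4.13% of all genes and in 5.83% of those with a promoter region. The YY1 string AAGATGGC was in 3 mitochondrial genes (Aars2, Wars2, Yars2) and 1 cytosolic gene (Farsa), against 3.62% of all and 5.01% of acetylated genes. The 4 NRF1 matches are shown as the counterpart of the CARE, from chr4:34614895-34614924 (Rars2, plus strand), chr17:35667620-35667649 and chr17:35667594-35667623 (Vars2, minus) and chr3:99141015-99141044 (Wars2, plus).
Rars2: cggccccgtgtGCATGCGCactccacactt
Vars2, distal: gagtcttttacGCATGCGCctgcgtgtccc
Vars2, proximal: tccccgcccacGCATGCGCgcgcacctcgc
Wars2: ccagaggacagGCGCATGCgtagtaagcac
These matches began 51 (Rars2), 46 and 20 (Vars2) and 64 bases (Wars2) before the start. With so few windows, a change of 1 or 2 genes alters each share greatly, and no test was run.

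The remaining strings, of general promoter factors and of CREB and muscle factors, were searched in the same windows on both strands. The GC box of SP factors (GGGCGG) was in 19 of 27 genes, against 51.5% of all genes and 68.6% of those with a promoter region. The CCAAT box of NF-Y was in 13, against 42.1% of all and 42.5% of acetylated genes. The ETS string was in 9, against 13.6% of all and 19.6% of acetylated genes. CACGTG, the E-box of MYC and USF, was in 9.23% of all and 11.7% of acetylated genes. In the family it was in 4 of 11 cytosolic genes (Aars, Farsb, Iars, Tars), 0 of 2 dual and 1 of 14 mitochondrial genes (Ears2). That cytosolic share equals that of the CARE, and Aars, Iars and Tars hold both strings. The TATA string TATAAA was in 3 of 27 genes (Aars2, Farsa, Tars2), against 14.7% of all and 9.04% of acetylated genes. The muscle E-box of MyoD (CAGCTG) was in 4 (Mars2, Tars, Yars, Yars2), against 17.7% of all and 18.3% of acetylated genes. None of the 27 held the CREB site TGACGTCA (2.71% of all and 3.6% of acetylated genes), the palindrome CTCGCGAG (1.42% and 2.08%) or the MEF2 site CTAAAAATA (0.498% and 0.376%). The windows of the synthetase genes had a median of 17.5 CpG dinucleotides (range 7 at Tars2 to 36 at Eprs), against 20 in windows of genes with a promoter region and 14 in all windows.

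The starts of these genes had little acetylation beyond the promoter region, which was itself of common width. Acetylated length, the bases covered within 5 kb to each side of a start, had a median of 2174 bp over the 37 genes. Replicate 1 alone gave 1742 bp and replicate 2 gave 2077 bp. All 12926 genes with a promoter region reached a median of 2608 bp (quartiles 1650 and 4489), with 2127 bp from replicate 1 and 2600 bp from replicate 2. Only 9 of the 37 lay above the median of those genes in the replicated list (replicate 1, 10; replicate 2, 12), and only Eprs and Iars2 lay above the upper quartile. At the start itself the values were close: the strongest promoter region had a median width of 1917 bp, against 2040 bp, and within 1 kb to each side of the start 1760 bp were acetylated, against 1753 bp. The signal value was the authors' own and used here only within a list. Its median over the strongest promoter regions was 34.3 in the family, against 27.8 for all genes with a promoter region. Ribosomal protein genes had medians near that of the family, 34.7 for the cytosolic and 32.9 for the mitochondrial ones. By signal value, 24 of 37 synthetase genes were above the median gene in the replicated list (25 in replicate 1, 24 in replicate 2).

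**Figure D1:**
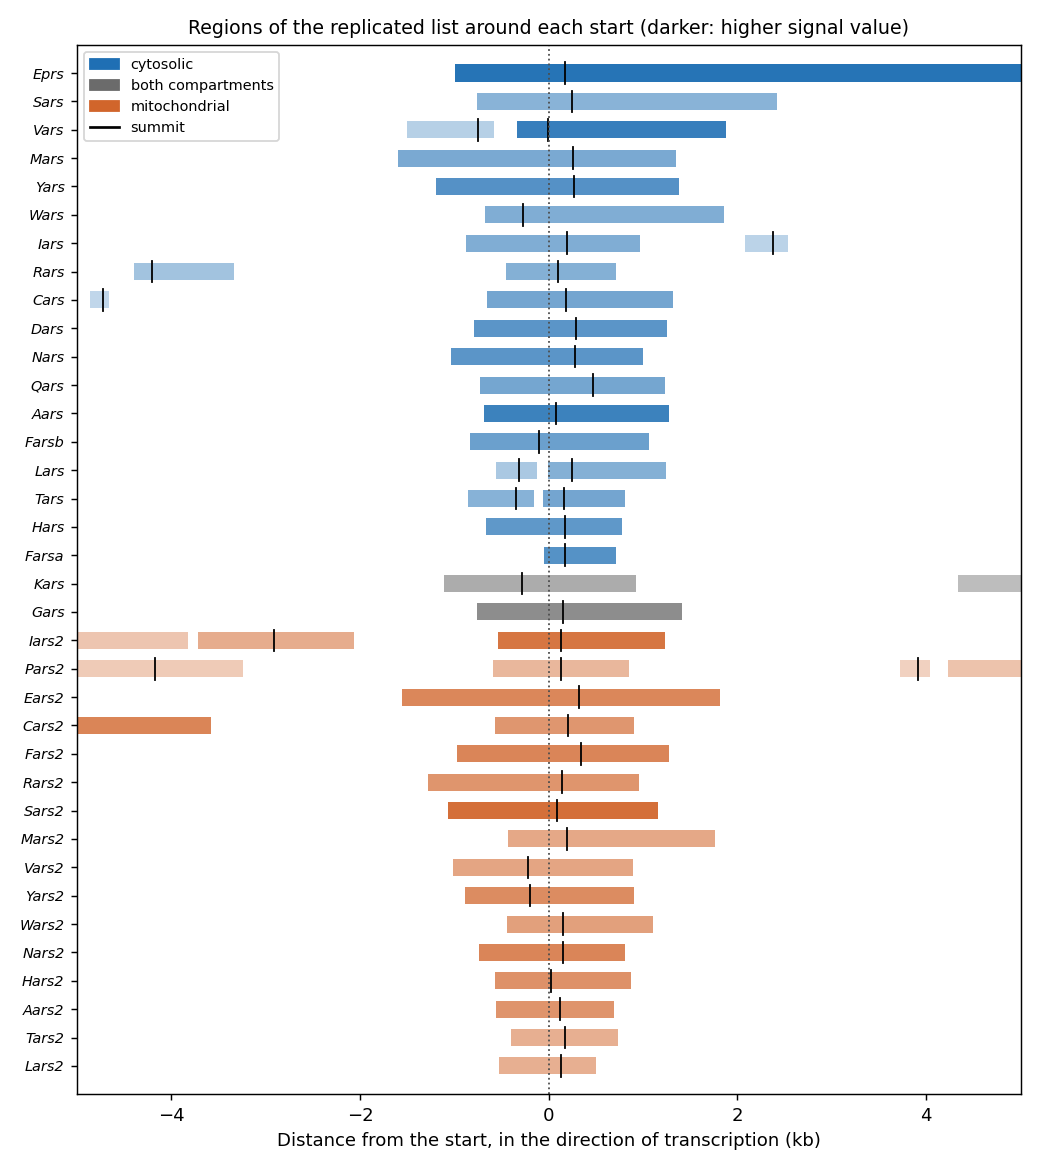
Acetylated regions of the replicated list from 5 kb before to 5 kb after the start of each of 36 genes (rows, ordered by acetylated length within each compartment), in kb along the direction of transcription; bars are regions, darker for a higher signal value, and black ticks are summits. In 26 of these 36 genes a single region is all there is, and the region of Eprs runs past the 5 kb limit.

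A single region at the start was the common form. Within 5 kb of the start 27 of 37 genes (73%) had 1 region only, against 47.3% of genes with a promoter region. The share was 64.1% among mitochondrial and 43% among cytosolic ribosomal protein genes. Of the other synthetase genes, 8 had 2 regions. Iars2 had 3 and Pars2 4. The start zone itself was split in Vars, Lars and Tars, which had 2 regions within 1 kb. The summit of the strongest region lay 0 to 500 bp downstream of the nearest start in 30 of 37 genes (81.1%), against 63% of genes with a promoter region. Its position had a median of 135 bp downstream and a range from 278 bp upstream (Wars) to 324 bp downstream (Ears2). The map of regions shows this core: at the start and at each 100 bp step to 400 bp after it, each of the 18 cytosolic and 17 mitochondrial genes was acetylated.

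**Figure D2:**
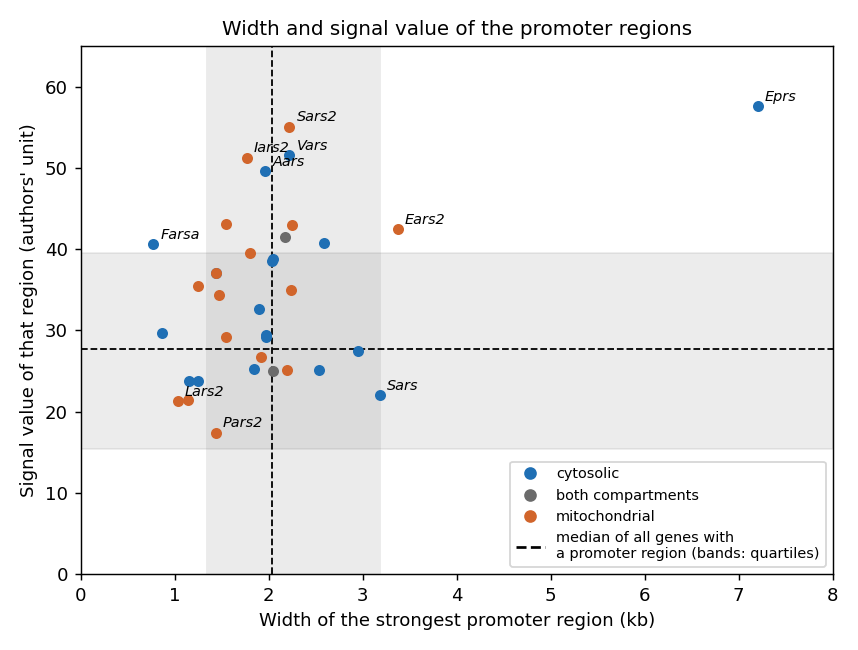
Width in kb (horizontal) and the authors' signal value (vertical) of the strongest promoter region of each of 36 genes in the replicated list; dashed lines are the medians of all genes with a promoter region and grey bands their quartiles. Most points lie inside the quartiles of width, Eprs is at 7.2 kb, and Farsa pairs the narrowest region (769 bp) with a signal value of 40.6.

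Among the cytosolic genes Eprs, which encodes the fused enzyme for glutamate and proline, stood apart. Its region at chr1:185362051-185369251 was 7201 bp wide, began 993 bp before the start and ran beyond the 5 kb window into the gene. Its acetylated length was 5994 bp in the replicated list, and the lists of replicates 1 and 2 gave 5899 and 6020 bp. The signal value was 57.6 in the replicated list, the highest of the 37. It was also the highest in replicate 1 (46.8), but in replicate 2 Sars2 was higher (56.0 against 54.3). All 3 lists gave nearly the same length, and no other cytosolic gene came within 2000 bp of it.

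The next cytosolic genes were the serine enzyme Sars with 3186 bp (2763 bp in replicate 1, 3174 bp in replicate 2) and the valine enzyme Vars with 3142 bp (2909 and 2851 bp). The methionine enzyme Mars had 2952 bp (2546 and 3000 bp), and the tyrosine enzyme Yars had 2587 bp (2433 and 2611 bp). Sars, Vars and Mars differed from one another by less than the replicates of Sars or Mars did. Sars was long but weak, with a signal value of 22.04, the lowest of the cytosolic genes, while Vars reached 51.6. The middle 10 cytosolic genes ran from Wars at 2532 bp to Lars at 1679 bp in small steps. Qars, the glutamine enzyme, was among them with 1970 bp (1505 and 2077 bp). The 3 shortest were Tars (threonine) with 1573 bp (1308 and 1729 bp), Hars (histidine) with 1442 bp (1390 and 1499 bp) and Farsa with 769 bp (745 and 810 bp). Farsa encodes the alpha subunit of the cytosolic phenylalanine enzyme, and Farsb, which encodes its beta subunit, had 1894 bp (1613 and 1919 bp).

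**Figure D3:**
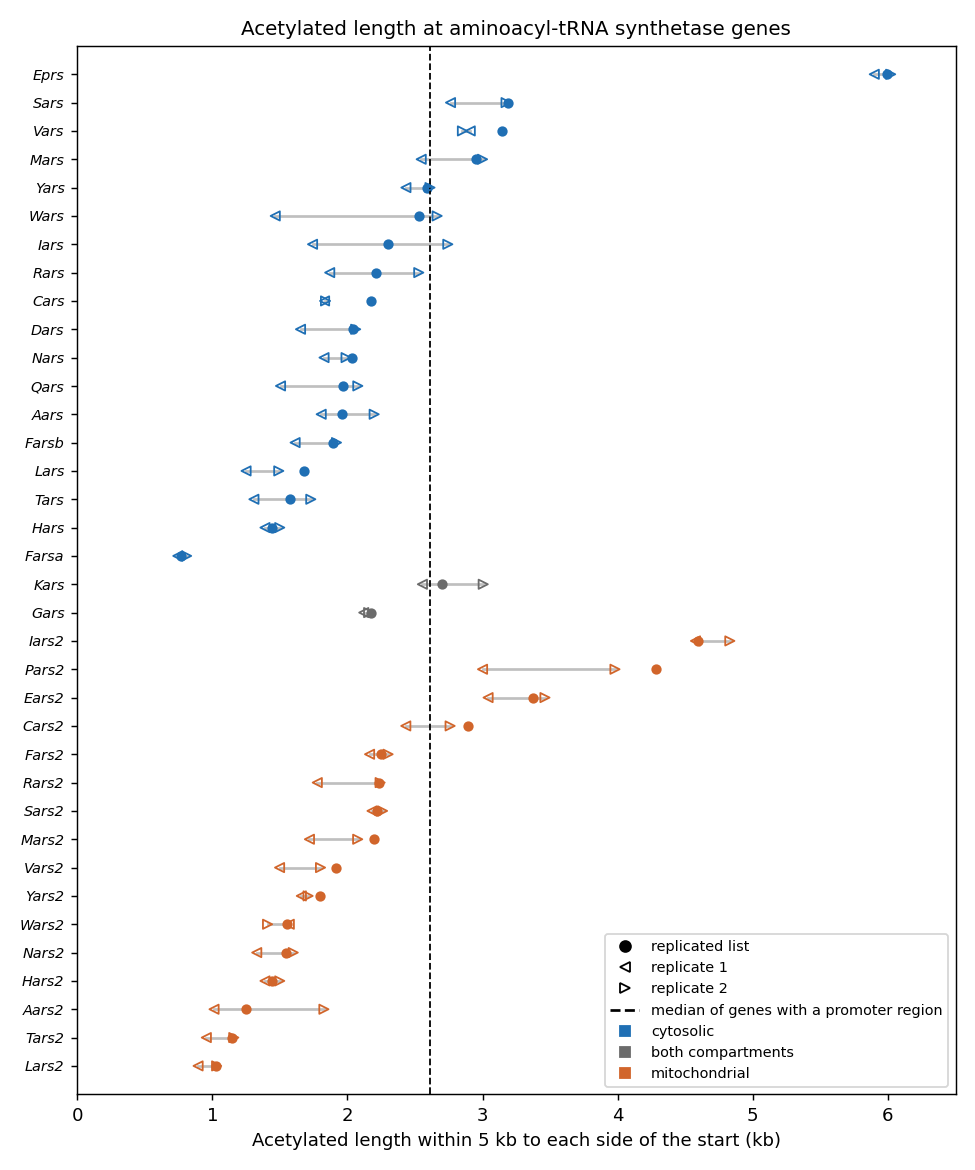
Acetylated length in kb within 5 kb to each side of the start (horizontal) for each of 36 genes, in the replicated list (filled points), replicate 1 (left-pointing) and replicate 2 (right-pointing triangles), coloured by compartment; the dashed line is the median of all genes with a promoter region. Eprs is near 6 kb in all 3 lists and Farsa under 1 kb, and most genes lie left of the line.

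Gars and Kars, whose transcripts give both a cytosolic and a mitochondrial enzyme, were above the family's median acetylated length of 2174 bp. Gars was below, and Kars just above, the median of 2608 bp of all genes with a promoter region. Kars (lysine) had 2701 bp (2555 bp in replicate 1, 3005 bp in replicate 2) with a signal value of 24.98. Gars (glycine) had 2177 bp (2121 and 2157 bp) with 41.5. Gars was thus shorter but stronger than Kars, in both replicates.

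Among the mitochondrial genes Iars2 and Pars2 were the longest, by regions away from the start. Iars2 (isoleucine) had 4591 bp, with 4576 bp from replicate 1 and 4830 bp from replicate 2. Its promoter region was 1766 bp wide, and the rest came from regions upstream, where the start of Bpnt1 lies within 5 kb. Pars2 (proline) had 4286 bp, of which its promoter region made 1438 bp, and the replicates gave 3000 and 3980 bp. No other coding start lay within 5 kb of Pars2. Ears2 (glutamate) had 3373 bp (3041 and 3462 bp) in 1 region, the widest at the start of a mitochondrial gene. The start of Ubfd1 lies within 5 kb of Ears2. Cars2 (cysteine) had 2890 bp (2432 and 2760 bp), in part from a region at the start of Ing1. Fars2 (phenylalanine) had 2250 bp (2164 and 2301 bp).

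The 3 shortest mitochondrial genes were Aars2 (alanine) with 1246 bp (1013 bp in replicate 1, 1826 bp in replicate 2), Tars2 (threonine) with 1143 bp (956 and 1159 bp) and Lars2 (leucine) with 1031 bp (895 and 1032 bp). The other 9 ran from Rars2 at 2235 bp to Hars2 at 1442 bp, and Hars2 shares its region with Hars. Length and signal were not in the same order: Sars2 (serine), at 2219 bp, had the highest signal value of the mitochondrial genes, 55.1, and Pars2 the lowest of all 37, 17.4.

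The replicates differed in the same direction at nearly all genes. Replicate 2 gave the longer value at 35 of 37 genes, by a median of 303 bp. Over all genes with a promoter region it was longer at 89.2%, by a median of 398 bp. Vars (58 bp) and Wars2 (161 bp) were longer in replicate 1. The largest differences were at Wars (1466 bp in replicate 1, 2664 bp in replicate 2), Iars (isoleucine; 1742 and 2743 bp) and Pars2. Depth is unknown, and its part in this difference was not tested.

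As groups with all their genes counted, cytosolic and mitochondrial genes were not told apart by length. The medians were 2107.5 bp (quartiles 1911 and 2573) for the 18 cytosolic and 1917 bp (1549 and 2250) for the 17 mitochondrial genes, a difference of 190.5 bp. In single lists the difference was 115 bp in replicate 1 and 300.5 bp in replicate 2, so the replicates disagree by about as much as the difference itself. The mitochondrial range (1031 to 4591 bp) lay inside the cytosolic range (769 to 5994 bp). By signal value the order turned in the replicated list, with medians of 31.1 for cytosolic and 35.0 for mitochondrial genes. Replicate 1 gave 24.9 and 26.8, while replicate 2 gave 36.9 and 36.1, so the replicates disagree on this order. Counting Gars and Kars with the mitochondrial genes turned the difference in length to -69.5 bp. Another coding start lay within 5 kb at 4 of 18 cytosolic and 8 of 17 mitochondrial genes. With such genes left out, an alternative chosen after seeing the data, the difference was 557.5 bp. The part of neighbouring genes in the lengths was not tested.

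Around the start the acetylated shares of the compartments differed on both sides. Counted from the start, cytosolic genes had a median of 812 bp upstream and 1263 bp downstream, and mitochondrial genes 977 and 909 bp. The downstream side was the longer in 15 of 18 cytosolic and 10 of 17 mitochondrial genes, against 68.5% of all genes with a promoter region. At 1000 bp after the start 66.7% of cytosolic and 35.3% of mitochondrial genes were acetylated, against 62.5% of genes with a promoter region. At 2000 bp the shares were 11.1%, 0% and 29.9%. Upstream the order of the compartments changed with distance. At 600 bp before the start the shares were 83.3%, 47.1% and 69.5%, while at 500 bp they were 83.3%, 82.4% and 76.0%. At 1000 bp before the start they were 22.2%, 29.4% and 42.2%, and at 100 bp before it 83.3%, 100% and 82.9%. These are descriptions of 1 list with no test.

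**Figure D4:**
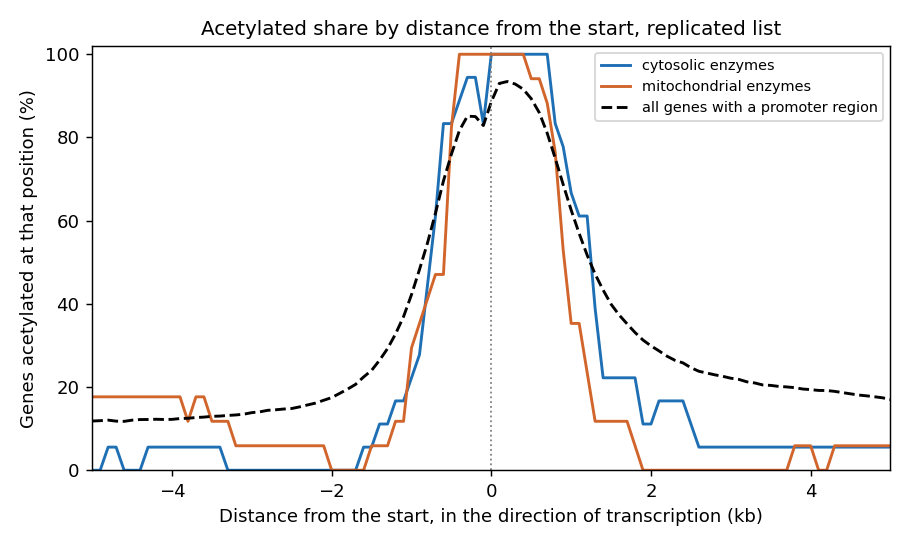
Percent of genes acetylated (vertical) at each distance from the start in kb (horizontal), in steps of 100 bp in the replicated list, for 18 cytosolic genes, 17 mitochondrial genes and all 12926 genes with a promoter region. Both groups of enzymes are at 100% from the start to 400 bp after it, the mitochondrial genes already from 400 bp before it. Downstream the mitochondrial genes fall off first, and between 2 and 3 kb on either side both lie below the dashed line.

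Set side by side for the same amino acid, the cytosolic enzyme's gene was usually the longer. The comparison covers 17 amino acids, with Eprs set against both Ears2 and Pars2 and the mean of Farsa and Farsb against Fars2. The cytosolic gene was longer in 12, the mitochondrial gene in 4 and neither in 1, in the replicated list and in replicate 1; in replicate 2 the counts were 13, 3 and 1. The median difference was 648 bp (355 bp in replicate 1, 460 bp in replicate 2). The largest differences towards the cytosolic gene were those of glutamate (2621 bp), proline (1708 bp) and valine (1225 bp), and the first pair share Eprs. Isoleucine went furthest the other way: Iars2 exceeded Iars, with a cytosolic minus mitochondrial value of -2290 bp (-2834 and -2087 bp in the replicates). Phenylalanine (-918.5 bp) and cysteine (-716 bp) also kept their direction in both replicates. Arginine, at -23 bp, was positive in both replicates (92 and 286 bp), and tryptophan, at 982 bp, was -104 bp in replicate 1 and 1255 bp in replicate 2, so replicate 2 decides it. By signal value the cytosolic gene was higher in 9 and the mitochondrial in 7.

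**Figure D5:**
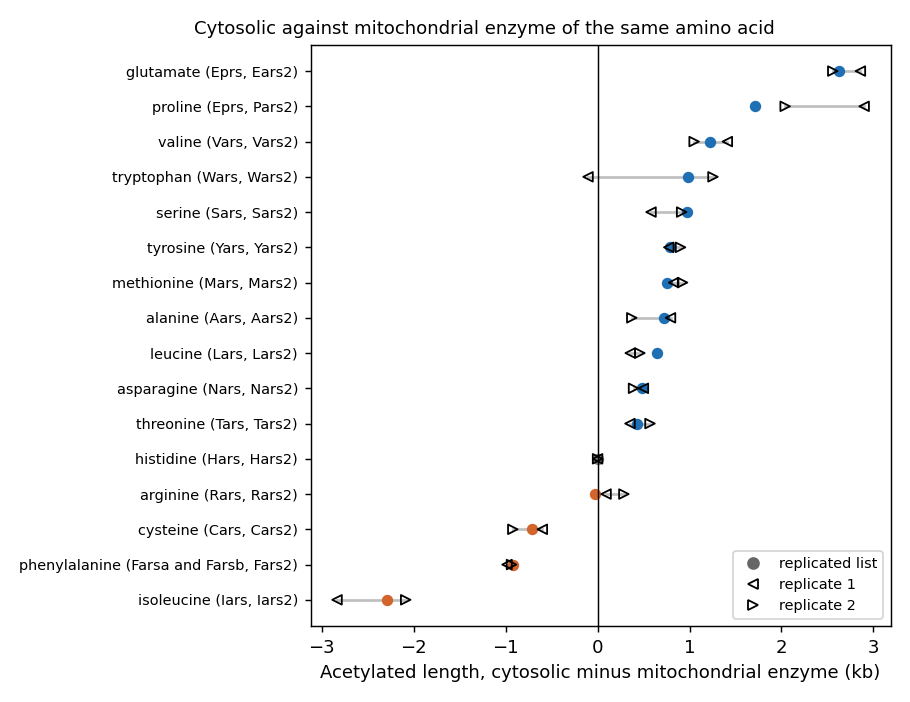
Difference in acetylated length in kb, cytosolic minus mitochondrial gene (horizontal), for 16 amino acids (rows, with gene names), in the replicated list (points, blue where the cytosolic and orange where the mitochondrial gene is longer), replicate 1 and replicate 2 (left- and right-pointing triangles). 11 points lie right of 0, and tryptophan is the row whose replicates fall on opposite sides.

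Enzymes of the multisynthetase complex and the others did not differ in length in a way that both replicates shared. The 8 complex enzymes (Eprs, Iars, Lars, Mars, Qars, Rars, Kars and Dars) had a median of 2256.5 bp and the other 12 cytosolic and dual genes 2104 bp. In replicate 1 the medians were 1805.5 and 1816.5 bp, and in replicate 2 they were 2635.5 and 2073.5 bp, so replicate 2 decides the gap. The signal value was lower in the complex enzymes, with a median of 26.3 against 37.8 in the replicated list, 22.7 against 28.2 in replicate 1 and 28.5 against 39.3 in replicate 2. Of their scaffolds, Aimp2 had 6005 bp (5692 and 6008 bp), Aimp1 1754 bp and Eef1e1 1283 bp.

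Other genes of the pathway were all acetylated at the promoter, over lengths that varied more. The 31 pathway genes outside the family all had a promoter region, ran from 550 bp to 9536 bp, and their median acetylated length was 1878 bp (replicate 1, 1660 bp; replicate 2, 1867 bp). The amino acid response genes spread most. The transcription factor genes Ddit3 (9276 bp), Atf4 (7987 bp) and Atf5 (6937 bp) and the glutathione-degrading enzyme gene Chac1 (5934 bp) were longer than nearly every synthetase gene. Asns (asparagine synthetase, 550 bp), Shmt2 (952 bp) and Phgdh (serine synthesis, 997 bp) were shorter than nearly all of them. Eif2ak4 had 1781 bp. Of the elongation factors, which carry charged tRNAs to the ribosome, Eef1a2, the form of muscle and neurons, had 9536 bp and Eef1a1 2721 bp. Tufm, the mitochondrial counterpart, had 3365 bp, and Mtfmt, which formylates the mitochondrial initiator tRNA, 816 bp. The 3 genes of mitochondrial glutamine transamidation, which replaces a separate mitochondrial glutamine synthetase, had 1303 bp (Gatb), 1730 bp (Gatc) and 1878 bp (Qrsl1). Mitochondrial ribosomal protein genes had a median of 1762.5 bp and cytosolic ones 2517 bp.

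Divergent promoters, in which a coding gene on the other strand starts at most 1 kb upstream, were present at 9 synthetase genes. Over all protein-coding genes 9.24% had such a partner, and 14.2% of those with a promoter region did. In the family they were 3 of 18 cytosolic genes, 1 of 2 dual and 5 of 17 mitochondrial genes, and the mitochondrial ribosomal protein genes had 25 of 78. Yars starts 33 bp from S100pbp, Wars 98 bp from Wdr25, and Kars 75 bp from Terf2ip. Rars2 starts 13 bp from Orc3, an origin recognition subunit, and Fars2 332 bp from Lyrm4, which acts in iron-sulphur cluster assembly. Sars2 starts 182 bp from Mrps12, a mitochondrial ribosomal protein. Hars and Hars2, the cytosolic and mitochondrial histidine enzymes, start 26 bp from each other under 1 region of 1442 bp, so their values are the same measurement. Of the 5 mitochondrial genes with a partner, Sars2 had 2219 bp (2182 bp in replicate 1, 2260 bp in replicate 2) and Rars2 had 2235 bp (1777 and 2242 bp). The 9 genes with a partner, Hars and Hars2 each counted, had a median of 2235 bp and the other 28 one of 2037.5 bp. Over all genes with a promoter region the order was the other way, 2508 bp with a partner and 2632.5 bp without. A region shared by both genes of such a pair cannot be assigned to either.

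Inside the gene bodies 53 regions lay over 1 kb from every start, in 19 of the 37 genes (51.4%). Those of Iars and Pars2, and part of that of Kars, lie within 5 kb of the start. They are thus also counted in the acetylated lengths and region numbers above. Of all protein-coding genes 40.3% held such a region, and of those with a promoter region 56.6% did. The median gene was 26126 bp long in the family, 17629 bp over all genes and 24050.5 bp over genes with a promoter region. The body regions were 19 regions in 10 cytosolic genes, 1 in Kars and 33 in 8 mitochondrial genes, with a median signal value of 4.70. That is near the 4.77 of all regions in the replicated list, which 26 of the 53 reached, and below the 34.3 of the strongest promoter regions. In both single-replicate lists 35 of the 53 were found, and 49 lay away from the starts of other coding genes. Fars2, the gene with the longest body of the 37, held 12, all but 1 of them between chr13:36444557 and chr13:36529973. Lars2 held 7, Wars and Iars2 5 each, Nars2 4 and Eprs 3. Cars, Ears2, Farsb and Lars held 2 each, and Aars, Dars, Iars, Kars, Pars2, Qars, Rars2, Tars2 and Vars 1 each. Of these genes, those whose acetylated length at the start is not given above had 2301 bp (Iars), 2174 bp (Cars; 1831 and 1838 bp in the replicates), 2041 bp (Dars; 1653 and 2061 bp), 1963 bp (Aars; 1806 and 2198 bp), 1679 bp (Lars; 1250 and 1492 bp) and 1549 bp (Nars2; 1329 and 1599 bp). The strongest, at the end of Qars (chr9:108515893-108518660, signal value 43.7), covers the start zone of Qrich1, and 3 others lie within 1 kb of a neighbour's start (Aars near Exosc6, Vars near Vwa7, Tars2 near Ecm1). Away from other coding starts, the strongest were in Farsb (chr1:78424241-78426782, 29.4), Kars (chr8:112004955-112006924, 15.3), Ears2 (chr7:122044539-122047134, 13.2) and Lars2 (chr9:123389943-123392467, 10.6). All 4 of these were in both replicates.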

How the data were processed

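H3K27ac regions from 4 libraries (2 biological replicates with 2 technical replicates each) were read from 4 peak lists on mm10 that the authors deposited, 1 for replicate 1, 1 for replicate 2, 1 for the pooled reads and 1 named replicated. Which list came from which replicate was taken from the deposited descriptions. Per those descriptions, reads of both technical replicates were in 1 alignment, so they were not told apart. For each region the authors deposited a signal value, of a unit no source used here names, and the −log10 of a q-value. Aligner, peak caller and thresholds: not given in the sources used here. Peaks carry no read counts, so depth is unknown and no interval that needs it is given. The control library was not analysed here.

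Genes and starts came from the GENCODE mouse release M21, basic set; the full set was run as an alternative chosen after seeing the data. A promoter region lay within 1000 bp of any start, and acetylated length was counted within 5000 bp to each side of the start with the largest value. 0 regions of a list overlapped, so none were merged. Promoter windows (250 bases before to 50 after the start, GRCm38.p6, the mm10 assembly) came from RefSeq, matched by gene identifier. The scripts used Python 3.11.15 and numpy 2.4.6 and were tested on simulated regions.

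There was 1 group of samples and genes are not replicates, so no test was run: counts and medians stand beside those of all protein-coding genes, and error is the difference between the replicates' lists. The genes named with values were, by rule, the 5 longest and 3 shortest in each compartment, Gars, Kars, Qars, Eprs, the 3 whose replicates differed most, and those with a divergent partner or a region inside the gene. The members and lists were chosen with earlier results of these data known. Values of 1 of the 37 genes and 1 promoter match are not reported here, and that gene is left out of the figures but counted in the group values.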

Additional observations from a re-analysis of the deposited data

How the results depend on the processing

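Over 17 settings, 90 of 105 alternative values stayed within the spread between replicates or within 1.5 times the count, 13 moved and 2 turned in sign. Of these, 3 that moved and 1 that turned only set the signal value in place of a length in bp, so their size cannot be compared with it. The spread was the SD of the 2 single-replicate values, which were themselves counted among the 105. For the cytosolic minus mitochondrial difference it was 131.2 bp, so 62.5 bp under the full GENCODE set counted as unchanged from 190.5 bp. Counts were compared without regard to how many genes or amino acids remained. The count of genes with a promoter region was 37 of 37 under every list, q and distance setting, and 36 from the 5′ ends alone, where Tars2 was lost. The q settings (−log10 q of at least 5 or 10) could not lower this count. The lowest −log10 q of a strongest promoter region in the family was 135.9 (Pars2). The pooled list gave these regions the same signal values as the replicated list, so it was no separate check. These settings are among the 105. Leaving out 1 replicate gave a median acetylated length of 1742 to 2077 bp for all 37 genes, 1774 to 2137.5 bp for cytosolic and 1659 to 1837 bp for mitochondrial genes, with a cytosolic minus mitochondrial difference of 115 to 300.5 bp. With the signal value of the replicated list in place of length the medians were 34.3, 31.1 and 35.0 and the difference -3.81. In replicate 2 the cytosolic median signal value was the higher. With Gars and Kars counted as mitochondrial, that median was 2177 bp and the difference -69.5 bp. A window of 10000 bp to each side gave a mitochondrial median of 2219 bp and a difference of 45.5 bp. Among alternatives chosen after seeing the data, the full GENCODE set gave a mitochondrial median of 2194 bp. Leaving out the 13 genes with another coding start within 5 kb gave 1550 bp and a difference of 557.5 bp, and the cytosolic gene was longer in 6 of the 6 amino acids still compared. The amino acids with a longer cytosolic gene were 8 of 10 without divergent genes, and of 17 they were 10 under both the wider window and the full set, and 14 with 2500 bp to each side. The causes of these changes were not tested. No paired analysis was possible because there is only 1 group of samples. Depth is unknown, so whether a stretch without a region is unacetylated or under the caller's limit cannot be told apart.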
